A study of Mus musculus with 8 samples.

Results

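The Akr1b aldo-keto reductases were followed through the whole skin of female mice, on every array feature whose transcript accession belongs to Akr1b3, Akr1b7, Akr1b8 or Akr1b10. These 4 genes were read by 6 probes, out of 21095 named genes and 55458 probes kept in all. Akr1b3 was read by the probes A_52_P10041 and A_55_P2174953, Akr1b10 by A_51_P486618 and A_55_P2095196, Akr1b8 by A_51_P128987, which was spotted 10 times on each array, and Akr1b7 by A_51_P331288. None of their spots was marked as an outlier or saturated on any array. The mice were CD109-/- or CD109+/+ on the FVB/N background, where CD109-/- animals lack the glycosylphosphatidylinositol-anchored surface protein CD109 and the wild-type animals were purchased. RNA was taken 24 h after DMBA, a polycyclic aromatic hydrocarbon that starts skin tumors by damaging DNA, or 24 h after its solvent acetone, which is called untreated here. The groups were CD109-/- DMBA, CD109+/+ DMBA, CD109-/- untreated and CD109+/+ untreated, with 2 one-color Agilent arrays in each and 8 in all, and the study sought changes that might lie behind the effect of CD109 deficiency on skin tumors. Nothing in the labels says that the 2 arrays of a group came from separate mice, so p-values measure the spread between these samples, which may be technical.

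Aldo-keto reductases of the Akr1b subfamily use NADPH to reduce aldehydes and ketones to alcohols. Akr1b3, also named Akr1b1, is aldose reductase, which turns glucose into sorbitol in the first step of the polyol pathway and also clears aldehydes made by lipid peroxidation. Akr1b8 is the mouse reductase first found as a gene induced by fibroblast growth factor. Akr1b7 is the vas deferens protein, abundant in the adrenal cortex and in the male tract and controlled by hormones. Akr1b10, with the older name Akr1b16, is a closely related reductase. Skin meets reactive carbonyls from sunlight, from inflammation and from the breakdown of hydrocarbons, and it also makes and removes retinaldehyde, a carbonyl that some reductases of this family can use.

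The 4 genes are neighbors on mouse chromosome 6, in the order Akr1b3, Akr1b8, Akr1b10 and Akr1b7 in the RefSeq annotation, with only 2 pseudogenes, Gm13858 and Gm13859, listed among them. Sequences upstream of the start site were matched by symbol for 3 of the 4 genes, Akr1b8, Akr1b10 and Akr1b7. The last 150 bases before each start are printed because these neighbors had unlike values with DMBA or were barely measurable, as described next. Whether the genes differed from one another in their response to DMBA was not tested, nor was any link to these sequences. They are from RefSeq on build GRCm38.p6, plus strand, and capitals mark a GCGTG, the core of the element bound by the Ah receptor, which DMBA activates.
Akr1b8 (chr6:34353996-34354145): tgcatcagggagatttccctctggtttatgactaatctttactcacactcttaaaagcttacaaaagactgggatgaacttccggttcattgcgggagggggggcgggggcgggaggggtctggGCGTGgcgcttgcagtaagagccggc
Akr1b10 (chr6:34384097-34384246): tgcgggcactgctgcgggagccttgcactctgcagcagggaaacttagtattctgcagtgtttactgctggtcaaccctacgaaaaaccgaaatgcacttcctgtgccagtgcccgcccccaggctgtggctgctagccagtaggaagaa
Akr1b7 (chr6:34412212-34412361): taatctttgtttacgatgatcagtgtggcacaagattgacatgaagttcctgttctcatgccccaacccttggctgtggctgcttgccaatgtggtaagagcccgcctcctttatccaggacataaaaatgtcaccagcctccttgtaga
The Akr1b8 window holds the only GCGTG, which begins 26 bases before the start site, and neither neighbor has one in the 250 bases searched. A GCGTG on either strand is present in 28.2% of 32851 RefSeq promoters over the same 250 bases, so it is a common sequence. TGACNNNGC, the core of the antioxidant response element bound by Nrf2, and TGANTCA, the AP-1 element, were in none of the 3, against 10.2% and 6.75% of all promoters. TATAAA was found once, on the minus strand 159 bases before the start of Akr1b8 and so outside the printed window, against 12.4% of all promoters. None of these matches overlaps another. The Akr1b10 and Akr1b7 windows were 44.2% identical in a global alignment and shared a run of 13 bases, while Akr1b8 was 48.5% identical to Akr1b10 with a longest shared run of 8 bases and 40.3% identical to Akr1b7 with one of 9. A match is a description of these letters and not a bound site.

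Levels below are log2 signals, meaning the log2 intensity of a probe minus the log2 of the 75th percentile of its array, so that 0 is the signal of the 75th percentile probe and 1 unit is a doubling. Cd109 itself, the deleted gene, was at -7.85 and -7.51 on the 2 CD109-/- DMBA arrays and at 1.09 and 1.68 on the 2 CD109+/+ DMBA arrays. In untreated skin it was at 1.90 on replicate 1 and -7.90 on replicate 2 labelled CD109-/-, against 2.29 on replicate 1 and -6.27 on replicate 2 labelled CD109+/+. This goes against the label of the array labelled CD109-/- untreated replicate 1 and of the array labelled CD109+/+ untreated replicate 2. It is not known here whether the Cd109 probe falls inside the deletion. Every comparison is therefore given with the labels as deposited and again with these 2 arrays exchanged. The exchange was chosen from the values of these same arrays, so p-values under it only describe arrays sorted like this and do not count as separate evidence about genotype. Comparisons within DMBA-treated skin use the same 4 arrays in both arrangements and differ between them only in the estimate of the spread. All 8 arrays lay on 1 slide and were scanned together. The DMBA arrays were in 1 row and the untreated arrays in the other, so row and treatment cannot be told apart. Arrays labelled CD109+/+ lay in columns 1 and 2 and arrays labelled CD109-/- in columns 3 and 4. Column and labelled genotype therefore cannot be told apart either.

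Akr1b8 was high in the CD109+/+ skin given DMBA and in no other group. Its log2 signal was 3.23 and 2.91 on the 2 CD109-/- DMBA arrays, against 4.98 and 4.69 on the 2 CD109+/+ DMBA arrays. Untreated arrays had 3.08 and 2.76 where labelled CD109-/-, against 3.27 and 3.003 on those labelled CD109+/+. The 2 CD109+/+ DMBA arrays stood above the other 6, which spanned 2.76 to 3.27 whatever their label. The SD of the 10 spots was between 0.0444 and 0.0834 log2 units on every array, which is the technical spread within an array and not that between samples.

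Akr1b3, aldose reductase, was lower in CD109-/- skin after DMBA on both of its probes. Probe A_52_P10041 had a log2 signal of 4.22 and 3.99 on the CD109-/- DMBA arrays, against 5.08 and 4.88 on the CD109+/+ DMBA arrays. Untreated arrays had 4.72 and 4.19 where labelled CD109-/-, against 4.52 and 4.21 on those labelled CD109+/+. The groups did not overlap after DMBA and overlapped in untreated skin as labelled. Probe A_55_P2174953 gave the same order after DMBA, with 1.45 and 0.92 on the CD109-/- arrays against 2.41 and 2.27 on the CD109+/+ arrays.

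Akr1b10 showed the same order after DMBA. Its probe A_51_P486618 was at 1.56 and 1.08 on the CD109-/- DMBA arrays, against 2.58 and 2.39 on the CD109+/+ DMBA arrays. Untreated arrays had 2.41 and 1.65 where labelled CD109-/-, against 2.06 and 1.52 on those labelled CD109+/+. The 2 CD109-/- DMBA arrays thus included the lowest value, and the array labelled CD109-/- untreated replicate 1 lay with the CD109+/+ DMBA arrays. The second probe, A_55_P2095196, was at 0.80 and 0.40 on the CD109-/- DMBA arrays, against 1.68 and 1.44 on the CD109+/+ DMBA arrays.

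Akr1b7 was barely measurable in skin. Its signal was well above background on 2 of 8 arrays, CD109-/- DMBA replicate 2 with -3.58 and the array labelled CD109+/+ untreated replicate 2 with -4.93, both without Cd109 signal. On the other 6 arrays it was not well above background, with values between -7.83 and -5.78. Testing required a signal well above background on both arrays of some group, so Akr1b7 was not tested, and no fold change is given. The 5 other probes were well above background on all 8 arrays, which makes 3 members tested.

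**Figure D1:**
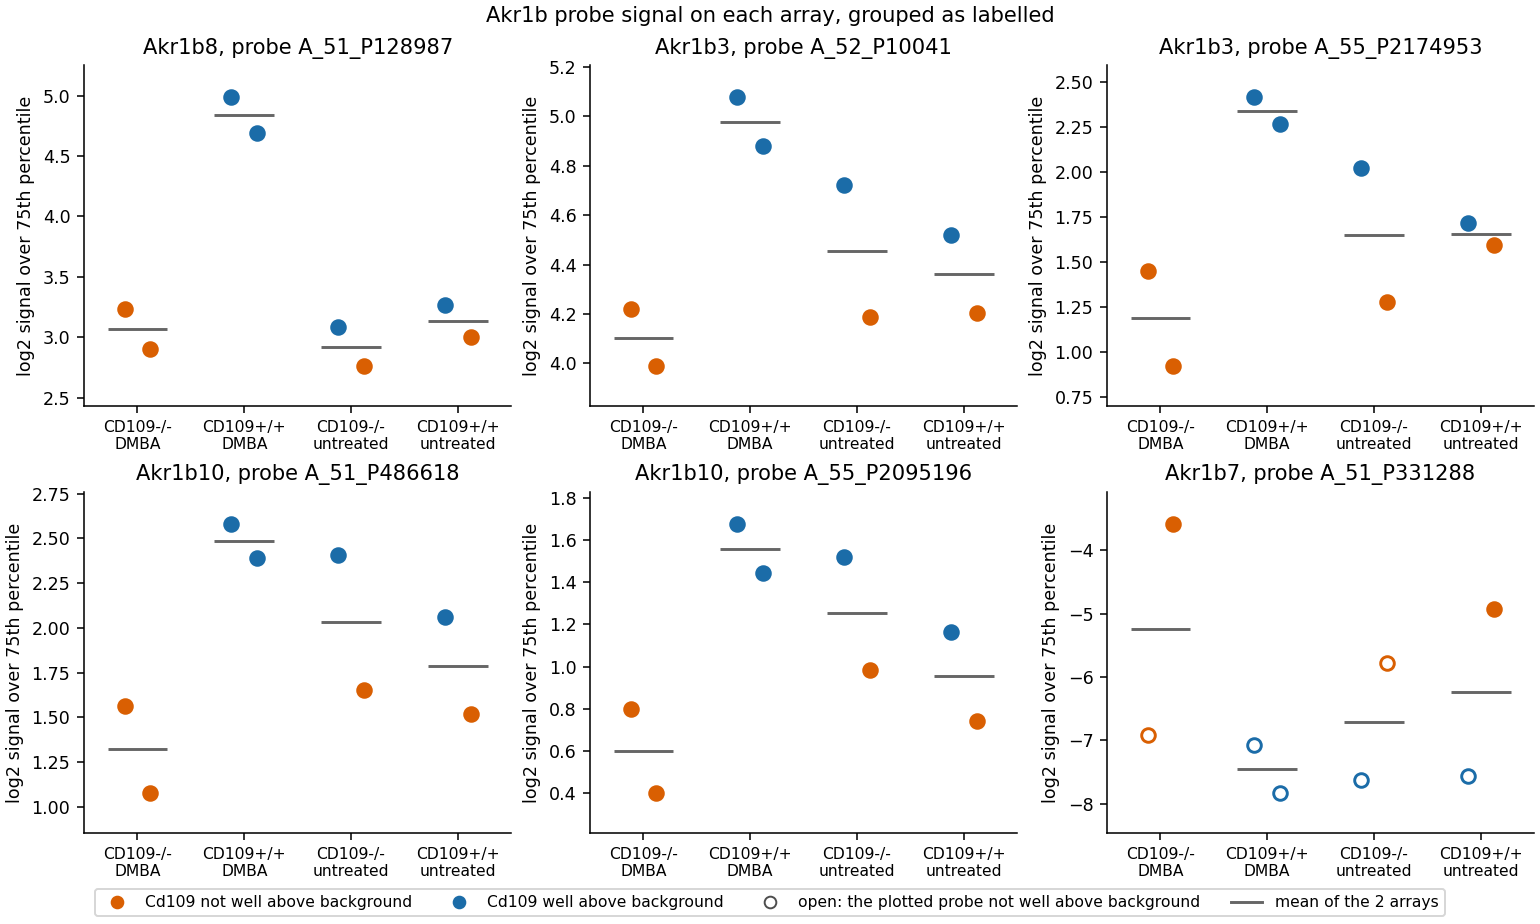
Log2 signal of the 6 Akr1b probes on each array, with groups as labelled and each y axis set to its own probe, where 0 is the 75th percentile of the array. Colors show whether Cd109 was well above background, open symbols a plotted probe that was not, and lines the mean of 2 arrays. Akr1b8 stands above 4.6 only on the 2 CD109+/+ DMBA arrays, and both probes of Akr1b3 and of Akr1b10 are lower on all 4 arrays without Cd109 signal.

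After DMBA, the 3 tested members were all lower in CD109-/- than in CD109+/+ skin, in 4 of 4 pairs of arrays, but none passed the test with the labels as deposited. The share of all probes whose pairs all ran the same way was not counted for this or any other comparison. Akr1b8 averaged 3.07 ± 0.23 on the CD109-/- arrays and 4.84 ± 0.21 on the CD109+/+ arrays (SD, n = 2 each), a 3.41-fold difference or -1.77 on the log2 scale (limma, SE 0.23, adjusted p = 0.0794). Akr1b10 averaged 1.32 ± 0.34 in CD109-/- skin and 2.48 ± 0.14 in CD109+/+ skin, or -1.16 on the log2 scale (limma, SE 0.34, adjusted p = 0.125). Akr1b3 averaged 4.10 ± 0.16 in CD109-/- skin and 4.98 ± 0.14 in CD109+/+ skin, or -0.87 on the log2 scale (limma, SE 0.24, adjusted p = 0.12). The second probes gave -0.96 for Akr1b10 and -1.15 for Akr1b3. Of all 36917 probes tested, 0.0921% passed, meaning a p under 0.05 after Benjamini-Hochberg adjustment over all of them, and 0 of the 3 members did. At an unadjusted p under 0.05, 3 of the 3 members were counted by limma and 3 by the methods' t-test, which called 0 after adjustment, and 26.1% of all probes were in limma.

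With the 2 untreated arrays exchanged, the same differences had smaller errors and all 3 members fell in CD109-/- skin after DMBA. The adjusted p was 0.0132 for Akr1b8 (SE 0.19), 0.0256 for Akr1b3 (SE 0.15) and 0.0274 for Akr1b10 (SE 0.21) in limma, and both second probes passed too. In that arrangement 20.1% of 37144 probes passed, in either direction, so a call in this comparison was common. Fewer than 3 passed without some single arrays. None passed without CD109+/+ DMBA replicate 1 or without CD109+/+ DMBA replicate 2, only Akr1b8 passed without CD109-/- DMBA replicate 2 or without the array labelled CD109-/- untreated replicate 2, and Akr1b10 alone missed without the array labelled CD109+/+ untreated replicate 2.

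In untreated skin, no member differed by the test in either arrangement. As labelled, Akr1b8 averaged 2.92 ± 0.23 in CD109-/- skin and 3.14 ± 0.19 in CD109+/+ skin (SD, n = 2 each), or -0.21 on the log2 scale (limma, SE 0.23, adjusted p = 1). Akr1b3 and Akr1b10 had log2 fold changes of 0.09 (SE 0.24) and 0.24 (SE 0.34), both with an adjusted p of 1, and 0 of the 3 members had an unadjusted p under 0.05 in limma or in the methods' t-test. The background was 0.00542% of probes passing and 2.16% with such a p. With the 2 arrays exchanged, the signs of Akr1b3 and Akr1b10 turned. The log2 fold change was then -0.42 for Akr1b3 (SE 0.15, limma adjusted p = 0.129) and -0.65 for Akr1b10 (SE 0.21, limma adjusted p = 0.113), and Akr1b8 had -0.29 (SE 0.19, limma adjusted p = 0.342). All 3 were then lower in CD109-/- skin in 4 of 4 pairs, 2 of 3 had an unadjusted p under 0.05, against 29.9% of all probes, and 8.85% of all probes passed. The direction in untreated skin for Akr1b3 and Akr1b10 therefore depends on the arrangement.

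DMBA went with a higher Akr1b8 signal in CD109+/+ skin. As labelled, Akr1b8 averaged 4.84 ± 0.21 with DMBA and 3.14 ± 0.19 without it (SD, n = 2 each), a 3.26-fold difference or 1.70 on the log2 scale (limma, SE 0.23, adjusted p = 0.0846), higher in 4 of 4 pairs. Akr1b10 had 0.70 (SE 0.34, limma adjusted p = 0.517) and Akr1b3 had 0.62 (SE 0.24, limma adjusted p = 0.427), each higher in 4 of 4 pairs. None of the 3 passed, against 0.184% of all probes, while 2 had an unadjusted p under 0.05 in limma, against 4228 of the 36917 probes tested, and 1 in the methods' t-test, which called 0 after adjustment. With the 2 arrays exchanged, Akr1b8 rose by 1.66 (SE 0.19, limma adjusted p = 0.0185) and 3.54% of all probes passed. Akr1b3 then had 0.36 (limma adjusted p = 0.233) and Akr1b10 0.25 (limma adjusted p = 0.552, higher in 3 of 4 pairs), so neither passed. The Akr1b8 call held without either CD109-/- DMBA array and was lost without any one of the other 6 arrays, where its adjusted p lay between 0.0521 and 0.119 and its log2 fold change between 1.52 and 1.81.

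In CD109-/- skin, DMBA left Akr1b8 within the spread of the arrays. As labelled it averaged 3.07 ± 0.23 with DMBA and 2.92 ± 0.23 without it (SD, n = 2 each), or 0.15 on the log2 scale (limma, SE 0.23, adjusted p = 0.755). Akr1b3 had -0.35 (SE 0.24, limma adjusted p = 0.516) and Akr1b10 -0.71 (SE 0.34, limma adjusted p = 0.399), and Akr1b10 was lower in 4 of 4 pairs. With the 2 arrays exchanged these were 0.19 for Akr1b8, -0.09 for Akr1b3 and -0.26 for Akr1b10, none with an unadjusted p under 0.05. The background was 0% of probes passing as labelled and 0.0135% with the arrays exchanged, and 0 members passed in either. As labelled, 0 members had an unadjusted p under 0.05 in limma, against 14.3% of probes, or in the methods' t-test.

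The difference of the DMBA effects, CD109-/- minus CD109+/+, was negative for all 3 members and passed for none. As labelled it was -1.56 for Akr1b8 (SE 0.32, limma adjusted p = 0.267), -1.41 for Akr1b10 (SE 0.48, limma adjusted p = 0.296) and -0.97 for Akr1b3 (SE 0.35, limma adjusted p = 0.303). All 3 had an unadjusted p under 0.05 in limma and 2 in the methods' own test, which called 0 after adjustment. In limma 15.4% of all probes had such a p and 0% passed. With the 2 arrays exchanged, Akr1b8 kept nearly the same value, -1.47 (SE 0.27, limma adjusted p = 0.0949), while Akr1b10 and Akr1b3 were at -0.51 and -0.45. In that arrangement 0.0269% of probes passed and 1 member had an unadjusted p under 0.05, against 21.1% of probes. Whether DMBA acted differently on Akr1b8 in the 2 genotypes thus did not pass the test of the difference itself.

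Averaged over treatments, the 3 members had log2 fold changes for CD109-/- over CD109+/+ skin as labelled of -0.99 for Akr1b8 (SE 0.16, limma adjusted p = 0.278), -0.46 for Akr1b10 (adjusted p = 0.469) and -0.39 for Akr1b3 (adjusted p = 0.426), and none passed, against 0.00271% of all probes, while 1 had an unadjusted p under 0.05 in limma, against 12.3% of probes, and 1 in the methods' own test. With the 2 arrays exchanged all 3 fell, Akr1b8 by 1.03 (SE 0.13, limma adjusted p = 0.00809), Akr1b3 by 0.65 (SE 0.11, limma adjusted p = 0.0135) and Akr1b10 by 0.91 (SE 0.15, limma adjusted p = 0.0141). Akr1b3 and Akr1b10 were then lower in 16 of 16 pairs of arrays and Akr1b8 higher in 1 of 16. In that arrangement 30.9% of all probes passed. Only Akr1b8 passed without CD109+/+ DMBA replicate 1 or without the array labelled CD109-/- untreated replicate 1.

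Averaged over genotypes, DMBA against untreated skin gave 0.92 for Akr1b8 in both arrangements, since each array keeps its treatment. The adjusted p was 0.169 as labelled (SE 0.16), with 0.0298% of all probes passing, and 0.0427 with the arrays exchanged (SE 0.13), with 1.53% passing. It was higher in 12 of 16 pairs, and the exchanged call was lost without any one of the 8 arrays, with an adjusted p of 0.0524 to 0.148. Akr1b3 had 0.13 and Akr1b10 -0.01, with adjusted p-values of 0.809 and 0.994 as labelled. As labelled, 1 of the 3 members had an unadjusted p under 0.05 in limma, against 11.6% of probes, and 1 in the methods' own test.

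**Figure D2:**
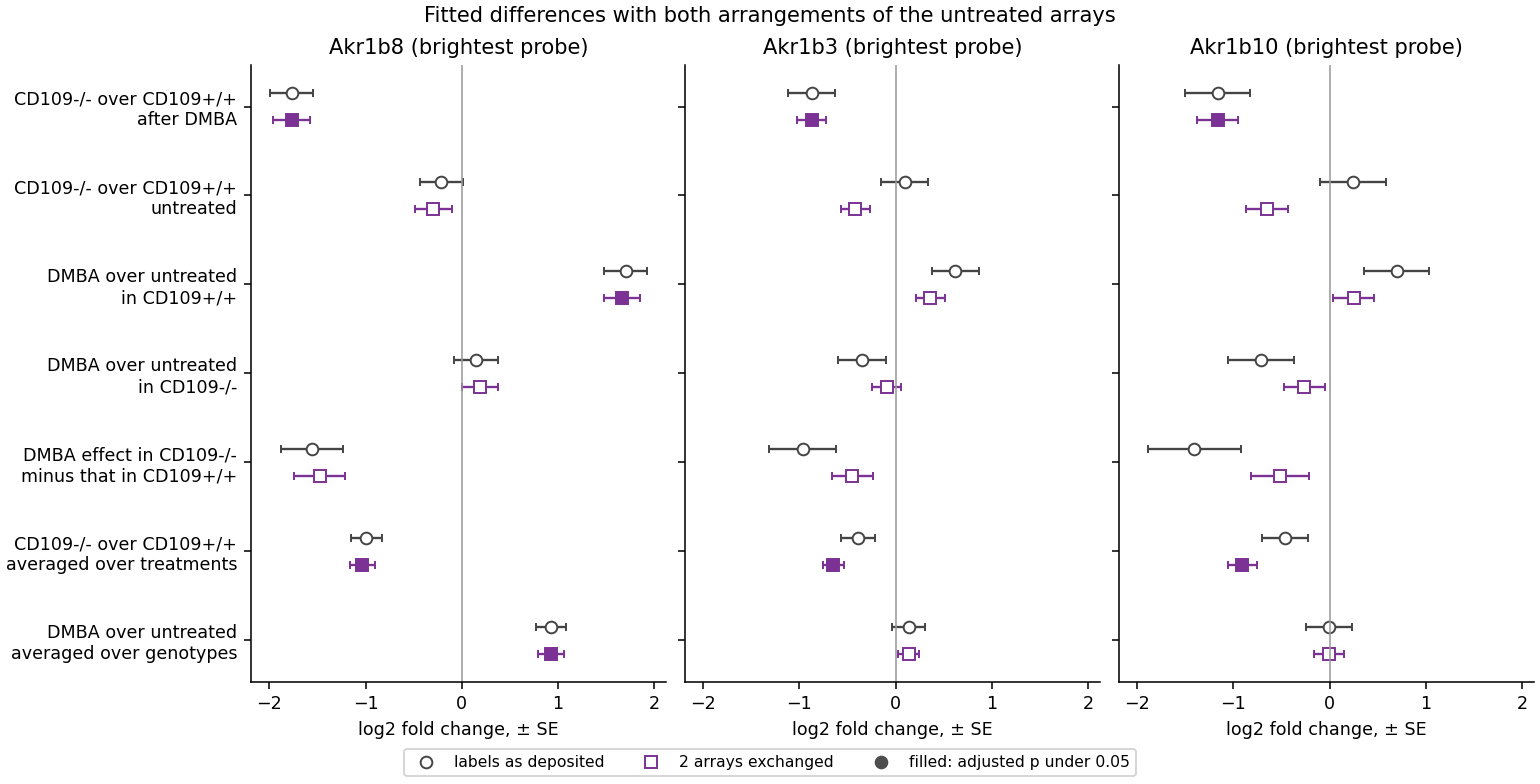
Log2 fold changes of the brightest probe of Akr1b8, Akr1b3 and Akr1b10 in the 7 comparisons, with SE, for the labels as deposited (circles) and with 2 untreated arrays exchanged (squares). Filled symbols passed at an adjusted p under 0.05 over all probes. All filled symbols belong to the exchanged arrangement, and the differences after DMBA have the same value in both.

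The 4 arrays without Cd109 signal and the 4 with it were next set side by side, as a description with no test, since this division was read from the arrays. Akr1b3 was between 3.99 and 4.22 on the 4 arrays without Cd109 signal and between 4.52 and 5.08 on the 4 with it. Akr1b10 was between 1.08 and 1.65 on the arrays without it and between 2.06 and 2.58 on the arrays with it. Neither gene overlapped, and their second probes did not overlap either, with gaps of 0.12 for Akr1b3 and 0.18 for Akr1b10. The share of all probes that did not overlap was not counted. A difference along this division was common. In the exchanged arrangement averaged over treatments, 30.9% of all probes passed and 45.6% had an unadjusted p under 0.05 in limma. Akr1b8 did overlap, between 2.76 and 3.23 on the arrays without Cd109 signal and between 3.08 and 4.98 on those with it. Among the arrays with Cd109 signal, the DMBA arrays did not overlap the untreated arrays for Akr1b8 or for either probe of Akr1b3, and they did for Akr1b10. The share of all probes that were apart in this way was not counted either. These arrays make up DMBA over untreated in CD109+/+ skin with the arrays exchanged. There, 3.54% of all probes passed and 22.2% had an unadjusted p under 0.05 in limma.

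**Figure D3:**
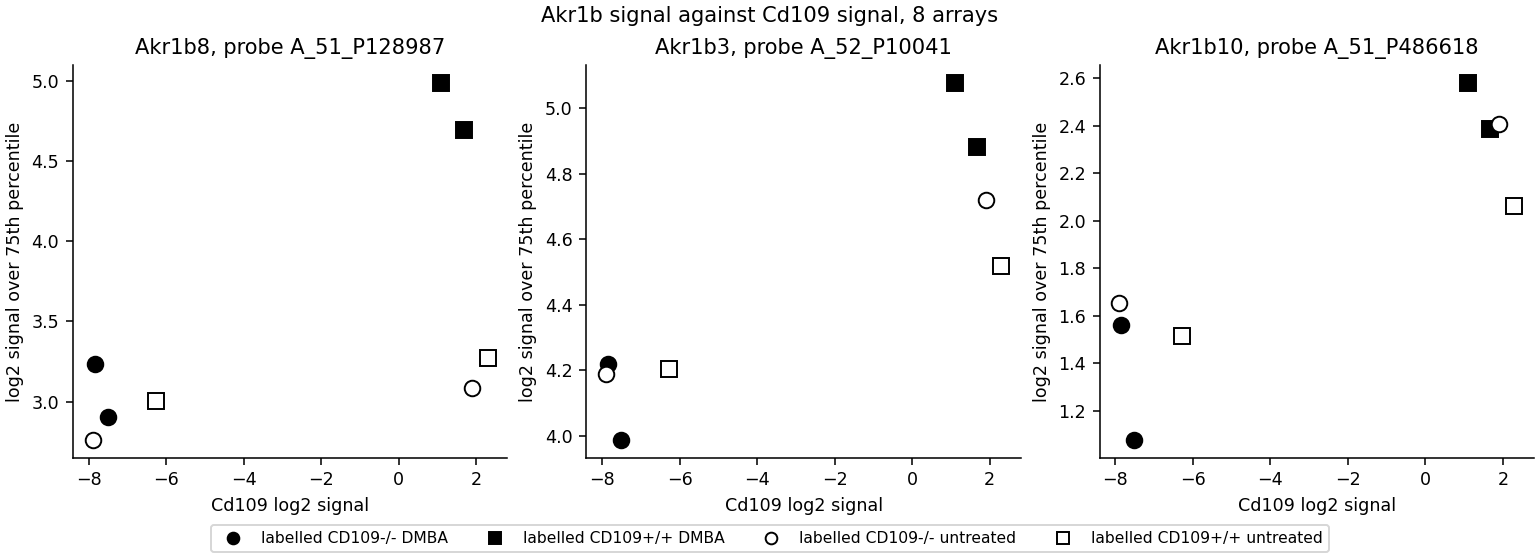
Log2 signal of Akr1b8, Akr1b3 and Akr1b10 (brightest probe) against that of Cd109 on the 8 arrays, circles for arrays labelled CD109-/- and squares for those labelled CD109+/+, filled after DMBA and open when untreated. The lowest Akr1b3 and Akr1b10 values with Cd109 signal, 4.52 and 2.06, lie above the highest without it, 4.22 and 1.65, whereas the open symbols with Cd109 signal lie with the low arrays for Akr1b8.

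The same division ran through the cell types of the skin, and in whole skin fewer cells of a type and less RNA per cell cannot be told apart. On average, 12 hair shaft keratins had a log2 signal between 0.80 and 5.43 on the arrays without Cd109 signal and between -4.45 and -4.06 on those with it, with 12 of 12 well above background on each array without Cd109 signal and 7 or 8 on each with it. The mean of 9 inner root sheath genes was between 3.26 and 5.49 without Cd109 signal and between -3.92 and -3.12 with it. Hair follicles make both sets while a hair is growing. Basal epidermis markers ran the other way, from 4.51 to 4.65 without Cd109 signal and from 4.79 to 5.26 with it, as did macrophage markers, from 1.74 to 2.87 without and from 3.04 to 3.91 with it. Adipocyte, skeletal muscle and fibroblast markers were also lower without Cd109 signal, and sebaceous gland and cornified epidermis markers overlapped. The neutrophil markers were highest on the 2 CD109+/+ DMBA arrays, as Akr1b8 was, with a mean of 1.76 and 1.06 there and of -1.10 to 0.76 on the other 6. The lowest mean, -1.10, was on CD109+/+ untreated replicate 1, where Akr1b8 was the highest of those 6. The part that any of these cell types had in the Akr1b values was not tested.

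**Figure D4:**
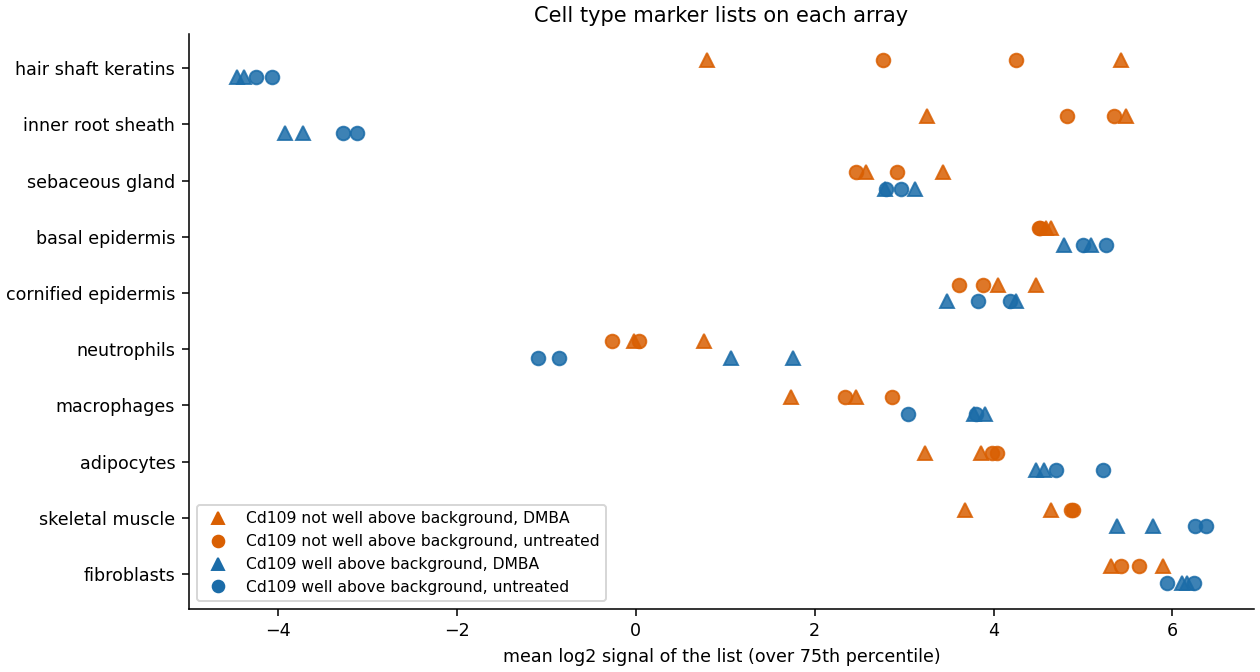
Mean log2 signal of 10 lists of cell type markers on each array, triangles after DMBA and circles untreated, by whether Cd109 was well above background. Hair shaft keratins lie above 0.7 on the 4 arrays without Cd109 signal and below -4.0 on the 4 with it, and the neutrophil markers are highest on the 2 DMBA arrays with Cd109 signal.

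Genes that share substrates or pathways with the family were compared as 7 lists. With the labels as deposited, 0 genes of any list passed in any of the 7 comparisons. For CD109-/- over CD109+/+ after DMBA, some had an unadjusted p under 0.05 in limma. They were 2 of 8 polyol and fructose, 2 of 9 other aldo-keto reductase, 8 of 22 carbonyl and 4 of 15 retinaldehyde genes. In the Nrf2, prostaglandin and osmotic lists they were 8 of 21, 4 of 13 and 2 of 7. Of all probes, 26.1% had such a p. A list takes the brightest probe of each gene, whereas the shares given beside it are over all probes. The values that follow are for CD109-/- over CD109+/+ after DMBA with the 2 arrays exchanged, where 20.1% of probes passed and the median over 16849 genes was -0.05. In the polyol and fructose pathway, which uses the sorbitol that aldose reductase makes, 3 of 8 tested genes fell and 0 rose, with a median of -0.44. They were the glucose transporter Slc2a1 (-0.99), the fructose kinase Khk (-0.61) and the sugar transporter Slc2a8 (-0.59). Slc2a1 was at 3.18 and 2.71 on the CD109-/- arrays, against 4.04 and 3.83 on the CD109+/+ arrays.

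Among 9 tested aldo-keto reductases outside the Akr1b family, 1 rose and 1 fell, with a median of -0.62. Akr1a1, the aldehyde reductase that works beside aldose reductase, fell by 0.85 (SE 0.18, limma adjusted p = 0.032), with 5.25 and 4.87 on the CD109-/- arrays, against 5.96 and 5.87 on the CD109+/+ arrays. Akr1c19 rose (limma adjusted p = 0.04999). It was not well above background on either CD109+/+ array, so that it was at least 8.36-fold higher in CD109-/- skin. The bound used the weakest signal that counted as well above background on each CD109+/+ array, or the probe's own signal where higher. In untreated skin with the arrays exchanged, Akr1c19 ran the other way. It was at -7.68 and -5.14 without Cd109 signal, against -3.64 and -2.07 with it. Averaged over treatments, 7 of the 9 fell and 0 rose in the exchanged arrangement, where 30.9% of all probes passed. They were led by Akr1c13 (-1.46), Akr1c12 (-1.62) and Akr1c14 (-2.16), related genes whose probes may read each other's transcripts.

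Of 22 tested genes for detoxification of carbonyls and aldehydes, 6 fell and 0 rose, with a median of -0.62. The glutathione transferase Gsta4, which conjugates the lipid peroxidation product hydroxynonenal, fell by 1.97 (limma adjusted p = 0.013), the aldehyde dehydrogenase Aldh3b1 by 2.05 and the quinone reductase Nqo1 by 1.34. Nqo1 was at -1.28 and -1.81 on the CD109-/- arrays, against -0.08 and -0.33 on the CD109+/+ arrays. Of 21 tested genes of Nrf2 and its targets, which hold Gsta4 and Nqo1 too, 5 fell and 1 rose, with a median of -0.19. Heme oxygenase, Hmox1, fell by 1.18 (limma adjusted p = 0.0167), with 3.36 and 3.21 on the CD109-/- arrays, against 4.51 and 4.41 on the CD109+/+ arrays.

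In retinaldehyde metabolism, 2 of 15 tested genes rose and 2 fell, with a median of -0.14. Stra6, a membrane receptor for retinol uptake, rose by 6.41 and was high on all 4 arrays without Cd109 signal, while the retinoic acid binding protein Crabp1 fell by 2.29 and the retinoic acid hydroxylase Cyp26b1 by 1.37. In prostaglandin synthesis, where some Akr1b enzymes can make prostaglandin F, 1 of 13 rose and 4 fell, with a median of -0.42. Ptgs2, the inducible cyclooxygenase, fell by 3.36 (limma adjusted p = 0.0082), with -4.04 and -3.82 on the CD109-/- arrays, against -0.35 and -0.78 on the CD109+/+ arrays, while Ptgds, a prostaglandin D synthase, rose by 4.39 and Hpgds fell by 1.53. In the osmotic response, in which sorbitol made by aldose reductase serves as an osmolyte, 1 of 7 fell, the water and glycerol channel Aqp3, by 1.85.

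Few of these genes passed for DMBA over untreated skin. In CD109+/+ skin with the arrays exchanged, 0 of 22 carbonyl detoxification genes and 0 of 21 Nrf2 genes passed, against 3.54% of all probes. At an unadjusted p under 0.05 in limma there were 7 and 11, against 22.2% of all probes. The medians were 0.12 and 0.40, against -0.004 over all genes. Gsta4 had 0.94 (limma adjusted p = 0.0712) and Hmox1 0.77 (limma adjusted p = 0.0532) there. Among the genes named from the lists, Ptgs2 rose by 2.17 (limma adjusted p = 0.0206) and Crabp1 by 1.72, and the fructose transporter Slc2a5 fell by 1.84. In CD109-/- skin 0 genes of the 7 lists passed in either arrangement. Of all probes, 0% passed there as labelled and 0.0135% with the arrays exchanged.

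The genes whose pattern over the 8 arrays was most like each member are given by Pearson's r among 15289 other genes well above background on all arrays, as a description over arrays that share a slide. For Akr1b8 they were 4930480E11Rik (r = 0.999), Txndc17 (r = 0.991), Qpctl (r = 0.989), Rps27l (r = 0.989) and Twf1 (r = 0.982). For Akr1b3 they were Hgsnat (r = 0.997), Rpp21 (r = 0.993), Scrt2 (r = 0.992), Stom (r = 0.991) and Ifnar2 (r = 0.989). For Akr1b10 they were Gpr137b-ps (r = 0.998), Sec14l1 (r = 0.998), Cxcr3 (r = 0.997), Fcgrt (r = 0.996) and Tstd3 (r = 0.996). The 5 genes most like Akr1b3 and the 5 most like Akr1b10 did not overlap between arrays without and with Cd109 signal. The 5 most like Akr1b8 overlapped. Since the genes were picked by r over these same arrays, they largely had to repeat the member's pattern, so this is no separate evidence. Within the family, r was 0.972 between Akr1b3 and Akr1b10, 0.855 between Akr1b3 and Akr1b8 and 0.725 between Akr1b8 and Akr1b10.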

How the data were processed

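Total RNA from whole skin was labelled with Cy3 and hybridized to 8 one-color Agilent mouse arrays. The authors scanned the arrays, used Agilent Feature Extraction 11.5.1.1 and deposited, per spot, an intensity on a linear scale, background subtracted and detrended within the array and not normalized between arrays. The deposited table of values is that intensity times 1 constant per array. Control spots and outlier spots were dropped, which kept 55458 of 55681 probes, and spots of a probe were averaged on the log2 scale. Probes were named through RefSeq accessions (28026 of 29796 matched), and a gene stood for its brightest tested probe. The test was limma 3.58.1 in R 4.3.3, fitted to all 8 arrays with a mean for each group, and Benjamini-Hochberg adjustment over all tested probes at 0.05. Between 63.6% and 67.0% of spots per array were well above background, and precision is limited by how few arrays there are. The fit was tested on simulated data. Alternatives were quantile normalization, median centring, normexp with an offset of 50 on median intensities, other filters, separate fits per comparison, a replicate block, the methods' t-test (for averages and the difference, their test of 2 factors), a trend and robust variance, the deposited table, the mean of a gene's probes, and leaving out arrays. The text names every member probe, Cd109, up to 3 passing genes per list and comparison (or the 1 with the smallest p), described in part, and the 5 genes most like each member, except that 1 list gene is not reported here. The members, lists and tests were chosen with earlier results of these data known. Motifs and alignments were computed with Python 3.11.15 and Biopython 1.88.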

Additional observations from a re-analysis of the deposited data

Results flagged for a closer look

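The DMBA effect on Akr1b10 ran in opposite directions in the genotypes on every pair of arrays as labelled. On probe A_51_P486618, DMBA arrays were lower than untreated arrays in 4 of 4 pairs in CD109-/- skin and higher in 4 of 4 pairs in CD109+/+ skin, and the difference of the effects was -1.405 on the log2 scale (adjusted p = 0.296 from limma). On the second probe, A_55_P2095196, the pairs gave the same counts and the difference was -1.261 (adjusted p = 0.288 from limma). Neither difference passed the test. The share of all probes with opposite pairs like these was not counted. For the difference of the effects as labelled, 15.4% of all probes had an unadjusted p under 0.05 in limma. With the 2 untreated arrays exchanged, the differences were -0.51 and -0.48, with 1 of 4 pairs higher in CD109-/- skin and 3 of 4 in CD109+/+ skin on either probe.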

How the results depend on the processing

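With the labels as deposited, the number of Akr1b genes passing was 0 in all 7 comparisons and moved in 7 pairings of a comparison with an alternative. It was 1 with the normexp background, for CD109-/- over CD109+/+ after DMBA and for DMBA over untreated in CD109+/+ skin, Akr1b8 each time (limma adjusted p = 0.0461 and 0.049). With the replicate block it was 2 for CD109-/- over CD109+/+ after DMBA, Akr1b8 (limma adjusted p = 0.0452) and Akr1b10 (limma adjusted p = 0.0475), and the block changed no other call. The labels do not say whether replicate numbers pair the arrays. The differences between replicates correlated at 0.731 between the 2 untreated groups. Between CD109-/- DMBA and the untreated groups the correlations were 0.536 for CD109+/+ and 0.493 for CD109-/-. With CD109+/+ DMBA they lay between -0.0821 and 0.121. In both untreated groups, replicate 1 had Cd109 signal and replicate 2 did not, so these correlations cannot decide on pairing. The exchange gave 3, 1, 3 and 1, as reported. In untreated skin it turned CD109-/- over CD109+/+ to -0.42 for Akr1b3 and -0.65 for Akr1b10, and leaving out both arrays in doubt gave -0.33 and -0.41. Leaving out single arrays gave -0.17 to 0.36 for Akr1b3 and -0.14 to 0.62 for Akr1b10 there. Values near 0 also turned. For DMBA in CD109-/- skin, centring on the median gave Akr1b8 -0.074, and single arrays left out gave -0.018 to 0.31. Centring moved the median of all tested probes in that comparison to -0.131, against 0.0888. Akr1b10 averaged over genotypes was 0.045 without both arrays in doubt and -0.20 to 0.18 without single arrays. With the 2 arrays exchanged, the number passing without single arrays lay between 0 and 4 after DMBA, 0 and 1 untreated, 0 and 1 for DMBA in CD109+/+ skin, 1 and 4 averaged over treatments and 0 and 1 averaged over genotypes, with 0 after median centring (Akr1b8, limma adjusted p = 0.0589). The highest counts after DMBA, untreated and averaged over treatments include Akr1b7. It was higher in CD109-/- skin in these comparisons, opposite to the other members, which were lower. Its calls arose without CD109-/- DMBA replicate 1, where CD109-/- DMBA replicate 2 stood alone for its group and was taken to vary like the others. Akr1b7 was not well above background on either CD109+/+ DMBA array, so no value of it is given. In this arrangement Akr1b8 for DMBA in CD109-/- skin was -0.0047 after median centring, Akr1b3 there -0.21 to 0.023 and Akr1b10 averaged over genotypes -0.13 to 0.11 without single arrays. The causes of these changes were not tested.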
